A study of Mus musculus with 4 samples.

Results

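The genes of sterol and fatty acid synthesis were followed in single cells of the mouse aortic arch, by cell type and by diet. With earlier results of these data known, 29 genes were listed by symbol, out of 31053 genes counted in the series. All 29 were present in the count matrices. They comprise 18 sterol enzymes, 7 genes of fatty acid synthesis, elongation and desaturation, and 4 genes of control and transport. The tissue was aortic arch with its branches from male mice that were 3 months old at the start, and each of the 4 groups gave 1 library from pooled animals. Nrf2Cdh5tKO mice carried floxed alleles of Nfe2l2, the gene of the transcription factor Nrf2, together with a Cdh5-driven Cre that is active in endothelium and in a part of hematopoietic cells, and mice labelled Nrf2Cdh5Lox were the floxed controls. The standard-diet libraries Lox_CTR and KO_CTR each came from 4 mice that received saline, and the high-fat libraries Lox_HFD and KO_HFD each from 3 mice that received a further treatment and were fed the high-fat diet for 21 weeks. That treatment and the diet were always given together, so their parts cannot be told apart, and high-fat diet stands for both in what follows.

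Cholesterol is built from acetyl-CoA, first through the mevalonate steps to farnesyl pyrophosphate, then through squalene to lanosterol, and finally to cholesterol. When sterol is scarce in the endoplasmic reticulum, the transcription factor encoded by Srebf2 is released and raises the genes of these enzymes, and Insig1 holds it back when sterol is plentiful. Fatty acids are made by acetyl-CoA carboxylase and fatty acid synthase, lengthened by Elovl6 and desaturated by Scd1, Scd2, Fads1 and Fads2, under the influence of Srebf1. Excess sterol is turned into oxysterols, which activate the liver X receptors (Nr1h2 and Nr1h3) and raise the exporters Abca1 and Abcg1.

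Of the 10 members lower on the high-fat diet in fibroblasts under both genotype labels, the following 4 are the sterol enzymes with a promoter entry. They are shown by the 250 bases before their RefSeq start site, because SREBP and its partner NF-Y are known to bind upstream of such genes. Capitals mark matches on either strand to TCACNCCAC, a form of the sterol regulatory element, and to CCAAT, the NF-Y motif, which reads ATTGG on the other strand. The sequences are from RefSeq on GRCm38.p6, written in the direction of transcription. They lie at chr13:119690101-119690350 (plus strand) for Hmgcs1, chr13:8885356-8885605 (plus strand) for Idi1, chr5:4104698-4104947 (minus strand) for Cyp51 and chr8:64733579-64733828 (minus strand) for Msmo1.
Hmgcs1: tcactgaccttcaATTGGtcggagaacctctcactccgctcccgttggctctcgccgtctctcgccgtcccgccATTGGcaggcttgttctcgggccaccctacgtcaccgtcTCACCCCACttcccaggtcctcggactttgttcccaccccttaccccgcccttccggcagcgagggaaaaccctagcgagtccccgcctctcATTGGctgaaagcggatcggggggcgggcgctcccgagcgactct
Idi1: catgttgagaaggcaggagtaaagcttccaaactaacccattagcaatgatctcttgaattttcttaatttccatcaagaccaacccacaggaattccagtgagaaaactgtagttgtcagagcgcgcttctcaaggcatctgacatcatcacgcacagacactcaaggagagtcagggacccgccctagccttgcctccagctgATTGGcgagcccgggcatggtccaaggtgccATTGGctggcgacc
Cyp51: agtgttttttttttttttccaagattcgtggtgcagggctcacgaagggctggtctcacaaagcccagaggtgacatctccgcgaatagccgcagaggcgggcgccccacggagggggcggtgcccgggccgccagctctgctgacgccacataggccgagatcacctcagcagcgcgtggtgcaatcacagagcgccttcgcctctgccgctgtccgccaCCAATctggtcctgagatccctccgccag
Msmo1: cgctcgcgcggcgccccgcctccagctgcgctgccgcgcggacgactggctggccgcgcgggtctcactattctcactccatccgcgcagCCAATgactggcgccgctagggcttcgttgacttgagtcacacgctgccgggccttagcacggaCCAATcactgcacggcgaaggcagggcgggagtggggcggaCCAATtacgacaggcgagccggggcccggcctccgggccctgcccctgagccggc
Hmgcs1 held 1 match to TCACNCCAC and 3 to CCAAT, Idi1 held 2 to CCAAT, Cyp51 held 1 and Msmo1 held 3. An entry was found for 22 of the 29 genes. CCAAT was present before 18 of these 22 and before 37.5% of all genes with an entry. Of the members lower in fibroblasts under both labels, 6 had an entry, and CCAAT was present before 5 of these 6. TCACNCCAC was present before 1 of the 22 and before 1.22% of all genes, and TCACGTGA, an E-box form, before none of the 22 and 0.907% of all genes. No other motif was searched, and a match describes the letters in this window only. The GENCODE annotation places the starts of Idi1 (chr13:8885501), Cyp51 (chr5:4104746) and Msmo1 (chr8:64733792) inside these windows. All marked matches of Idi1, Cyp51 and Msmo1 lie after those starts, so whether they are upstream depends on the annotation.

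Cells were assigned to 4 types by marker genes that include none of the 29: 7450 fibroblasts, 1986 smooth muscle cells, 1340 macrophages and 1156 lymphocytes. UMIs (unique molecular identifiers, which count transcript copies) were summed per library and cell type and expressed as CPM, counts scaled to a total of 1000000 UMIs in that sum. Genes left out of the gates were highest in the type they mark. Dcn, Col1a1 and Col3a1 together gave 18197 to 19531 CPM in fibroblasts and at most 1918 in the other 3 types. Adipocyte markers, of a cell rich in these enzymes, summed to at most 2.59 CPM in fibroblasts. The library Lox_HFD was the smallest, with 1020 cells kept and 66 of them in the smooth muscle gate. Nfe2l2 in the endothelial gate stood at 190 and 184 CPM in Lox_CTR and Lox_HFD and at 393 and 359 in KO_CTR and KO_HFD. The transcript was thus not lower in the libraries labelled Nrf2Cdh5tKO, and these gene-level counts do not bear out the label. They rest on few UMIs, 70, 34, 101 and 54 in the same order. By qPCR the study itself found less exon 5 relative to exon 3 in bone marrow-derived macrophages and Kupffer cells of Nrf2Cdh5tKO mice. It also reported lower Nqo1 and Gclm, targets of Nrf2, in both. The floxed exon of the study is exon 5, the 3′-most exon of Nfe2l2 in the GENCODE annotation, and the reads were not assigned to exons here. The genotype is therefore given below as the library label. With 1 library per group there is no replicate error within a group, and each diet ratio (high-fat over standard, log2) is given with its 95% interval from the exact binomial split of the UMIs, which covers counting error only. Differences between animals, pools and library preparations lie outside these intervals. A gene was counted as lower or higher where it had at least 30 UMIs over both libraries and differed by at least 1.5-fold.

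In fibroblasts the sterol pathway was lower on the high-fat diet under both genotype labels, at steps that ran from Hmgcs1 to Msmo1. The 18 sterol enzymes together gave 336 CPM in Lox_CTR and 205 in Lox_HFD, and 473 in KO_CTR and 218 in KO_HFD. The log2 ratio of the sum was -0.71 (interval -0.80 to -0.63) in the Nrf2Cdh5Lox pair and -1.12 (-1.18 to -1.06) in the Nrf2Cdh5tKO pair. Both high-fat libraries were lower than both standard-diet libraries. In the Nrf2Cdh5Lox pair 11 of the 29 genes were lower, where 10.5% of all genes tested were, and 2 were higher, where 10.9% of all genes were. In the Nrf2Cdh5tKO pair 19 of the 29 were lower against 7.97% of all genes, and none was higher against 6.17%. The median log2 ratio of the 29 was -0.38 and -0.92 in these pairs, beside 0.06 and -0.04 over all genes tested. Of the 29 genes, 10 were lower in both pairs with both intervals below 0, where 1.69% of all 12774 genes tested in both pairs were, and no member was higher in both pairs, where 1.40% of all genes were. The 29 were listed with earlier results of these data known, so the shares describe the list and are no independent test. A test added after these values were seen fitted diet and label as 2 terms over the 4 fibroblast sums with edgeR's quasi-likelihood test. It leaves 1 residual degree of freedom and counts a diet difference that depends on the label as error. It called 10 members lower at an adjusted p under 0.05 over 13618 genes and at least 1.5-fold, where 1.04% of all genes were, and 10 of these 10 were the members lower in both pairs. It called no member higher, where 0.654% of all genes were. At an unadjusted p under 0.05 and at least 1.5-fold it also had 0 higher, beside 3.06% of all genes. The adjusted p by edgeR ran from 2.7e-05 for Sqle (log2 -3.23, SE 0.30) to 0.033 for Elovl6 (-1.30, SE 0.29). This test used the same 4 sums as the rule on both pairs, so their overlap is no independent support. With 1 residual degree of freedom, its error rests largely on spread borrowed from other genes.

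**Figure D1:**
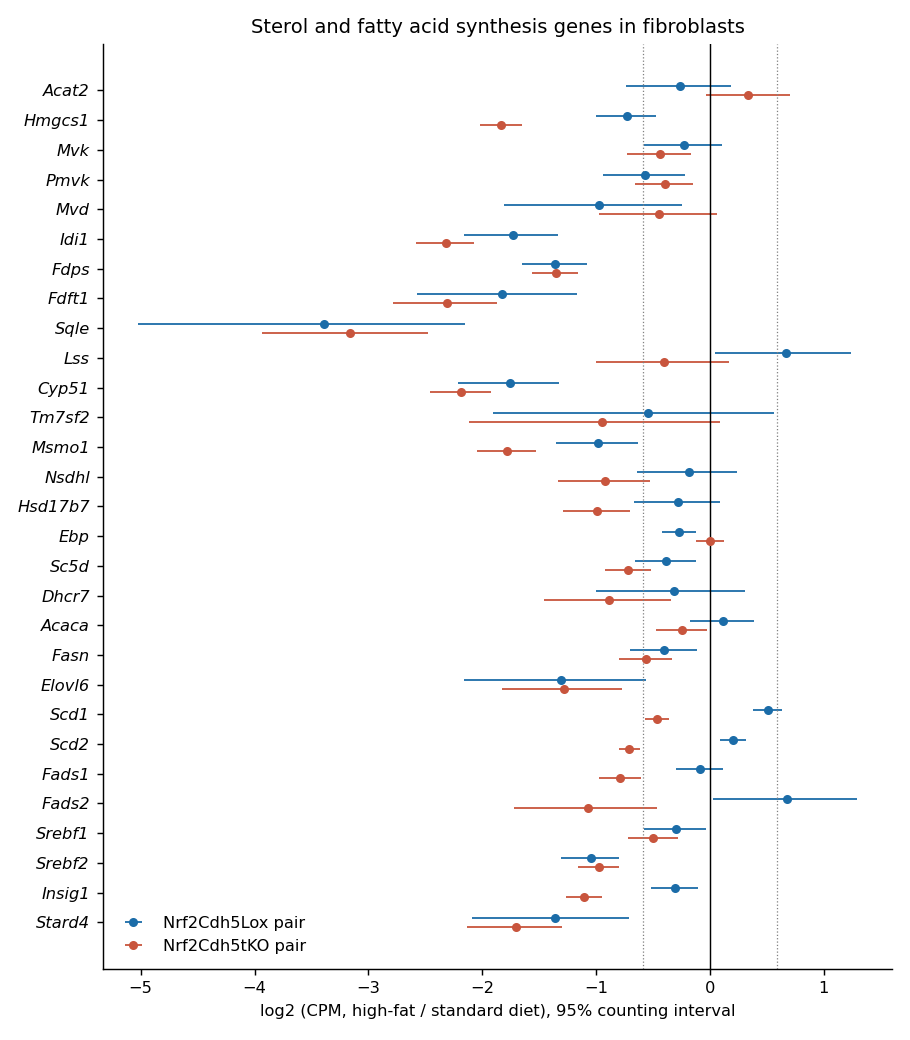
Diet ratio of each of the 29 genes in fibroblasts. The x axis is the log2 ratio of CPM, high-fat over standard diet, points are the Nrf2Cdh5Lox pair (blue) and the Nrf2Cdh5tKO pair (red), bars are 95% counting intervals and dotted lines mark 1.5-fold. Sqle lies farthest to the left in both pairs, at -3.39 and -3.16, while Scd1, Scd2 and Fads2 lie on opposite sides of 0 in the pairs.

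Among the mevalonate steps, Hmgcs1, Idi1 and Fdps met this rule. Hmgcs1 makes HMG-CoA, the substrate of the rate-limiting reductase. It gave 32.95 CPM in Lox_CTR and 19.8 in Lox_HFD, and 76.7 in KO_CTR and 21.5 in KO_HFD, so that KO_CTR stood above the other 3 libraries. Its ratios were -0.73 (-0.999 to -0.47) and -1.84 (-2.02 to -1.65). Idi1, the isomerase that makes dimethylallyl pyrophosphate, gave 26.1 and 7.88 CPM in Lox_CTR and Lox_HFD and 53.5 and 10.7 in KO_CTR and KO_HFD. Its level was 3.32-fold and 5.00-fold higher on the standard diet, with log2 ratios of -1.73 (-2.16 to -1.33) and -2.32 (-2.58 to -2.07). Fdps, farnesyl pyrophosphate synthase, gave 42.4 and 16.5 in the Nrf2Cdh5Lox pair and 48.3 and 18.9 in the Nrf2Cdh5tKO pair, standard diet first, and its ratio was -1.36 in each (-1.65 to -1.08 and -1.56 to -1.16). Both standard-diet libraries lay above both high-fat libraries for each of these 3 genes. The ratios of Acat2, Mvk, Pmvk and Mvd ranged from -0.98 to -0.23 in the Nrf2Cdh5Lox pair and from -0.45 to 0.34 in the Nrf2Cdh5tKO pair, and of these 4 only Mvd was past 1.5-fold, in the Nrf2Cdh5Lox pair.

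Of the 3 genes from squalene to lanosterol, Fdft1 and Sqle were lower in both pairs. Fdft1, squalene synthase and the first enzyme committed to sterols, gave 10.2 CPM in Lox_CTR and 2.88 in Lox_HFD, and 17.6 in KO_CTR and 3.54 in KO_HFD. Its ratios were -1.83 (-2.57 to -1.17) and -2.31 (-2.78 to -1.87). Sqle, squalene epoxidase, a rate-controlling step after the reductase, was reduced to few UMIs, with 404 in Lox_CTR and 5 in Lox_HFD and 317 in KO_CTR and 18 in KO_HFD. The levels were 7.93, 0.757, 12.4 and 1.39 CPM, and the ratios were -3.39 (-5.02 to -2.15) and -3.16 (-3.93 to -2.48), the lowest of the 29 genes in either pair. Sqle (ENSMUSG00000022351) lies at chr15:59315077-59331192 on the plus strand and Fdft1 (ENSMUSG00000021273) at chr14:63145150-63179578 on the minus strand of GRCm38, by the GENCODE annotation. In that annotation Fdps overlaps Gm43738 and Tm7sf2 overlaps Vps51 on the same strand, so their counts are less certain. Lss, which closes the ring to lanosterol, did not follow, with ratios of 0.66 (0.05 to 1.24) and -0.41 (-1.002 to 0.16).

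Of the 8 genes between lanosterol and cholesterol, Cyp51 and Msmo1 were lower in both pairs. Cyp51, lanosterol demethylase, gave 23.5 CPM in Lox_CTR, 6.97 in Lox_HFD, 46.3 in KO_CTR and 10.2 in KO_HFD, with ratios of -1.75 (-2.21 to -1.33) and -2.19 (-2.46 to -1.93). Msmo1, the C4-methyl oxidase, gave 20.9, 10.6, 37.8 and 11.0 in the same order, with ratios of -0.98 (-1.35 to -0.63) and -1.78 (-2.04 to -1.53). In each case KO_CTR was the highest library and both high-fat libraries were the lowest. The other 6 genes had ratios of -0.55 to -0.19 in the Nrf2Cdh5Lox pair, where none was past 1.5-fold. In the Nrf2Cdh5tKO pair Tm7sf2, Nsdhl, Hsd17b7, Sc5d and Dhcr7 lay between -0.99 and -0.72 and were past it, although the interval of Tm7sf2 (-2.12 to 0.09) held 0. Ebp, the sterol isomerase, stood at 72.9, 60.4, 62.3 and 62.1 CPM in Lox_CTR, Lox_HFD, KO_CTR and KO_HFD and had ratios of -0.27 and -0.00.

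Among the genes of control and transport, Srebf2 and Stard4 were lower in both pairs. Srebf2, which encodes the factor that drives the sterol genes, gave 42.2 and 20.4 CPM in Lox_CTR and Lox_HFD and 48.7 and 24.7 in KO_CTR and KO_HFD, with ratios of -1.05 (-1.31 to -0.80) and -0.98 (-1.16 to -0.80). Stard4, a carrier of cholesterol between membranes, gave 7.78, 3.03, 14.1 and 4.31 in the same order, with ratios of -1.36 (-2.09 to -0.71) and -1.71 (-2.14 to -1.30). Both standard-diet libraries exceeded both high-fat libraries for the pair of genes. Insig1 was past 1.5-fold in the Nrf2Cdh5tKO pair alone, at -1.11 (-1.27 to -0.95) against -0.31 (-0.52 to -0.10) in the other, and Srebf1 had ratios of -0.30 and -0.50.

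**Figure D2:**
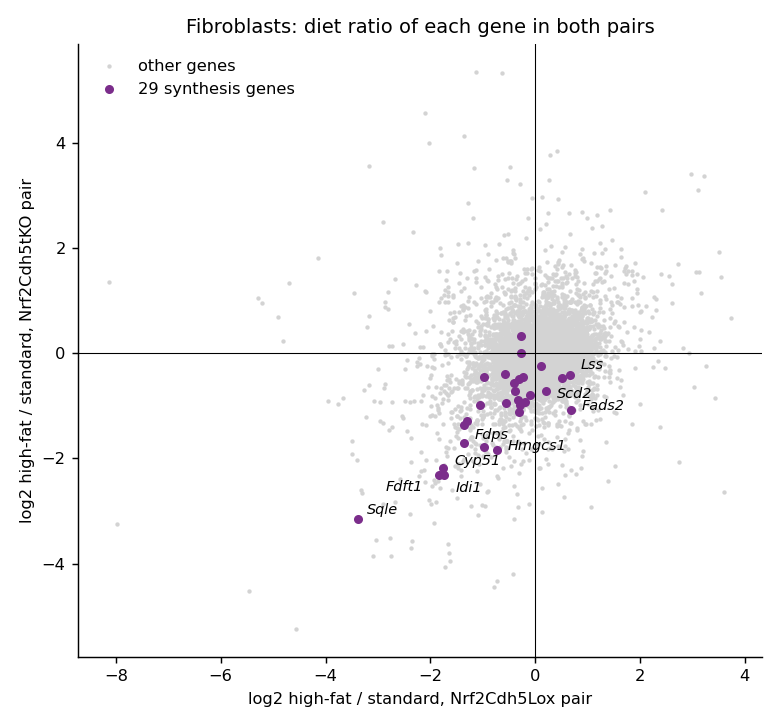
Diet ratio of each gene in fibroblasts in the Nrf2Cdh5Lox pair (x axis) and the Nrf2Cdh5tKO pair (y axis), both as log2 of high-fat over standard diet. Grey points are the genes with at least 30 UMIs in each pair and a UMI in every library (12752 genes in all), and purple points are the 29 synthesis genes, of which Sqle, Fdft1, Idi1 and Cyp51 lie toward the lower left edge.

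The fatty acid genes of fibroblasts moved in 1 direction in the Nrf2Cdh5tKO pair only. There all 7 intervals were below 0, and 4 genes were lower by at least 1.5-fold, beside 7.97% of all genes. The median log2 ratio was -0.71, beside -0.04 over all genes tested. In the Nrf2Cdh5Lox pair 3 intervals lay above 0 and 2 below, and the median was 0.11, beside 0.06. The sum of the 7 genes was 240 CPM in Lox_CTR and 273 in Lox_HFD, a log2 ratio of 0.19 (0.12 to 0.26). It was 375 in KO_CTR and 245 in KO_HFD, a ratio of -0.61 (-0.67 to -0.56). KO_CTR was thus the highest of the 4 and the other 3 lay close together. Elovl6, which lengthens palmitate, was the member lower in both pairs, with 5.62 and 2.27 CPM in the Nrf2Cdh5Lox pair and 7.11 and 2.93 in the Nrf2Cdh5tKO pair, standard diet first, and ratios of -1.31 (-2.16 to -0.56) and -1.28 (-1.82 to -0.77). The stearoyl-CoA desaturases went in opposite directions in the pairs. Scd1 gave 62.6, 89.1, 108 and 78.3 in Lox_CTR, Lox_HFD, KO_CTR and KO_HFD, and Scd2 gave 96.5, 111, 168 and 103. Their ratios were above 0 in the Nrf2Cdh5Lox pair (0.51 and 0.20) and below 0 in the Nrf2Cdh5tKO pair (-0.46 and -0.71), and Fads2 likewise had 0.68 and -1.07. Scd1 and Scd2 are related in sequence and were counted as separate genes, so reads shared by them could be split or lost. Acaca (0.11 and -0.25), Fasn (-0.40 and -0.56) and Fads1 (-0.09 and -0.79) made up the rest.

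On the standard diet the label Nrf2Cdh5tKO had the higher sums of sterol enzymes and fatty acid genes in fibroblasts. On the high-fat diet the sterol sums of the labels were close. The share of all genes that differed between the labels was not computed. The sum of the sterol enzymes was 1.41-fold higher in KO_CTR than in Lox_CTR, a log2 ratio of 0.49 (0.46 to 0.53), and the ratio between KO_HFD and Lox_HFD was 0.09 (-0.01 to 0.18). For the fatty acid genes these ratios were 0.64 (0.60 to 0.68) and -0.16 (-0.24 to -0.08). Hmgcs1 (2.33-fold), Idi1 (2.05-fold) and Cyp51 (1.97-fold) differed most between the standard-diet libraries, whereas Fdps (1.14-fold) and Srebf2 (1.15-fold) differed little. Each label has 1 library per diet, so label and library cannot be told apart.

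The difference was also seen in the share of fibroblasts with a transcript. After every fibroblast with at least 5000 UMIs was thinned to 5000, the share with a UMI of any sterol enzyme was 74.1% in Lox_CTR and 62.7% in Lox_HFD, and 78.2% in KO_CTR and 65.6% in KO_HFD. Without thinning these were 86.5%, 83.5%, 93.3% and 78.0%, and 666, 53, 107 and 222 shallower cells were left out. For Idi1 the thinned shares were 10.5% and 4.17% in the Nrf2Cdh5Lox pair and 17.4% and 3.99% in the Nrf2Cdh5tKO pair, and for Cyp51 10.2% and 3.43%, and 18.1% and 5.39%, standard diet first. The median depth of fibroblasts moved in opposite directions, from 12121 to 14090 UMIs in the Nrf2Cdh5Lox pair and from 16666 to 11002 in the Nrf2Cdh5tKO pair. The same direction was found in fibroblasts divided by a single marker: with Pi16, a marker of adventitial progenitors, the ratio of the sterol sum was -0.68 (2204 and 207 cells) in the Nrf2Cdh5Lox pair and -1.07 (868 and 539 cells) in the other, standard diet first. With Penk it was -2.17 and -1.74, on as few as 5 cells. These divisions were chosen after the values were seen. Neutrophil genes (S100a8, S100a9 and Retnlg) also moved in the fibroblast sums, from 278 to 2235 CPM in the Nrf2Cdh5Lox pair and from 9.84 to 102 in the Nrf2Cdh5tKO pair, while the smooth muscle genes Acta2, Tagln and Myl9 went from 594 to 272 and from 358 to 714. Their part in the result was not tested.

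Other genes of the pathway, 36 in all and also listed by symbol, were read beside the 29. Of 17 further synthesis genes, 2 were lower in the Nrf2Cdh5Lox pair and 6 in the Nrf2Cdh5tKO pair, and none was higher in either. Over all genes 10.5% and 7.97% were lower and 10.9% and 6.17% higher, so the share of 2 in 17 is near that of all genes. Tmem97, a partner of the lysosomal cholesterol carrier, had ratios of -0.87 and -0.78. Of 9 genes of efflux and storage, Abcg1 was higher in both pairs, at 1.78 (0.83 to 2.66) and 1.32 (0.59 to 2.06), from 0.707 to 2.42 and from 1.17 to 2.93 CPM. Ch25h, which makes 25-hydroxycholesterol, was lower in both, at -1.41 (-2.57 to -0.46) and -2.34 (-3.06 to -1.69). Abca1 had ratios of 1.01 and 0.48 and was past 1.5-fold in the Nrf2Cdh5Lox pair. The macrophage genes C1qb, Pf4 and Fcgr1 went from 46.4 to 53.2 CPM in the fibroblast sums of the Nrf2Cdh5Lox pair. In the Nrf2Cdh5tKO pair they went from 63.0 to 115. The part of macrophage RNA in the low Abcg1 values of fibroblasts was not tested.

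The other 3 cell types had lower sums of the sterol enzymes on the high-fat diet too, with fewer members past 1.5-fold in both pairs and fewer UMIs behind each value. The median log2 ratio of all genes, which scaling by the median gene subtracts, was 0.13 in smooth muscle and 0.16 in macrophages of the Nrf2Cdh5Lox pair. In the Nrf2Cdh5tKO pair it was -0.11 in macrophages and -0.18 in lymphocytes. Ratios near these values are to be read relative to them.

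**Figure D3:**
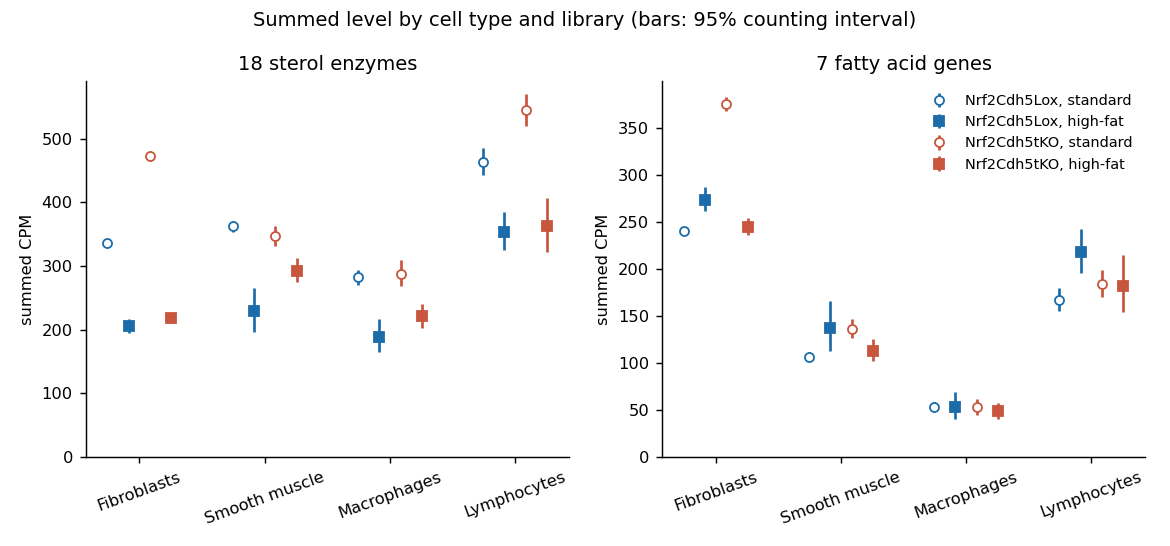
Summed CPM (y axis, from 0) of the 18 sterol enzymes (left) and the 7 fatty acid genes (right) in each cell type and library. Open circles are standard diet, filled squares high-fat diet, blue the Nrf2Cdh5Lox and red the Nrf2Cdh5tKO label, and bars 95% counting intervals. In every cell type the sterol sum of the high-fat library lies under that of its standard-diet pair, although for Nrf2Cdh5tKO lymphocytes the ratio was 0.07 without dividing and thymocyte-like cells.

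In smooth muscle cells the sterol sum went from 362 to 229 CPM in the Nrf2Cdh5Lox pair and from 347 to 292 in the Nrf2Cdh5tKO pair, log2 ratios of -0.66 (-0.88 to -0.45) and -0.25 (-0.36 to -0.13). In the Nrf2Cdh5Lox pair 10 of 29 members were lower, beside 11.2% of all genes, and 3 higher, beside 22.2%. The share of 22.2% can include genes without a UMI in Lox_HFD, because counts of 0 were set to 3. The totals were 20550316 UMIs in Lox_CTR and 782296 in Lox_HFD. In the Nrf2Cdh5tKO pair 7 of the 25 with enough UMIs were lower, beside 8.03%, and none was higher, beside 6.14%. Idi1 was lower in both pairs, a rule met by 0.394% of all genes, and no member was higher in both, where 0.799% were. It gave 32.3 and 17.9 CPM in Lox_CTR and Lox_HFD and 31.7 and 18.5 in KO_CTR and KO_HFD. Its ratios were -0.85 (-1.73 to -0.10) and -0.78 (-1.23 to -0.35). Sqle, so low in fibroblasts on the high-fat diet, gave 14.9, 10.2, 17.9 and 16.3 CPM in Lox_CTR, Lox_HFD, KO_CTR and KO_HFD. Its ratios were -0.55 (-1.77 to 0.45) and -0.14 (-0.65 to 0.36), and both intervals held 0. The Lox_HFD values rest on 66 cells and 179 UMIs of the 18 enzymes. The fatty acid sum went from 106 to 137 CPM in the Nrf2Cdh5Lox pair and from 136 to 113 in the Nrf2Cdh5tKO pair. Its ratios were 0.36 (0.07 to 0.64) and -0.27 (-0.46 to -0.09). Markers of other cells moved in the same sums. Those of atrial muscle went from 163 to 7.67 and from 149 to 15.3 CPM, those of adipocytes from 27.5 to 12.8 and from 16.5 to 10.6, and the neutrophil genes from 496 to 40.9 and from 10.9 to 6.57. Their part in the result was not tested. With diet and label as terms edgeR called no member lower or higher in smooth muscle, where 0.232% and 0.508% of all genes were. At an unadjusted p under 0.05 and at least 1.5-fold it had 5 lower and 0 higher, beside 2.04% and 2.84% of all genes. Of the 36 other genes Apoe was lower in both pairs (-1.24 and -0.81).

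In macrophages the sterol sum went from 282 to 189 and from 288 to 221 CPM, log2 ratios of -0.58 (-0.79 to -0.37) and -0.38 (-0.54 to -0.23). In the Nrf2Cdh5Lox pair 10 of the 25 with enough UMIs were lower, beside 11.2% of all genes, and 2 were higher, beside 2029 of the 9664 genes tested. With scaling by the median gene 18 were lower, beside 15.9% of all genes. In the Nrf2Cdh5tKO pair 8 of 20 were lower, beside 12.7%, and 1 higher, beside 7.15%. Idi1 and Fdps were lower in both pairs, a rule met by 0.673% of all genes, and no member was higher in both, where 1.23% were. Idi1 gave 24.5, 13.0, 23.5 and 15.5 CPM in Lox_CTR, Lox_HFD, KO_CTR and KO_HFD, with ratios of -0.91 (-1.81 to -0.13) and -0.60 (-1.21 to -0.01), and Fdps gave 22.0, 11.1, 19.5 and 11.6, with ratios of -0.99 (-1.97 to -0.14) and -0.75 (-1.44 to -0.08). The upper bounds lie close to 0 and the Lox_HFD values rest on 14 and 12 UMIs. Sqle was low on the high-fat diet here too, with 6.08, 0.926, 6.99 and 1.93 CPM in the same order. Its ratio was -2.71 in the Nrf2Cdh5Lox pair, on 45 UMIs in Lox_CTR and 1 in Lox_HFD. In the Nrf2Cdh5tKO pair Sqle had under 30 UMIs. With diet and label as terms edgeR called no member lower or higher in macrophages, where 0.192% and 0.585% of all genes were. At an unadjusted p under 0.05 and at least 1.5-fold it had 7 lower and 1 higher, beside 2.17% and 3.05% of all genes. The higher one was Scd2 (log2 1.24). The fatty acid sum went from 53.1 to 52.8 CPM in the Nrf2Cdh5Lox pair and from 52.6 to 48.4 in the Nrf2Cdh5tKO pair. Its ratios were -0.01 (-0.44 to 0.40) and -0.12 (-0.48 to 0.24). Other markers moved too. In the Nrf2Cdh5Lox pair the macrophage genes C1qb, Pf4 and Fcgr1 went from 8371 to 4951 CPM, the fibroblast genes from 522 to 133, genes of the dissociation response from 2919 to 4358 and those of dividing cells from 135 to 238. In the Nrf2Cdh5tKO pair atrial muscle markers went from 353 to 0 and neutrophil genes from 465 to 4.64, while the macrophage genes stood at 7300 and 7201. Their part in the result was not tested. Of the other genes, Abcg1 was higher in both pairs, at 2.54 (2.18 to 2.91) and 1.97 (1.48 to 2.49), from 19.0 to 111 and from 16.2 to 63.5 CPM. Nr1h3, the liver X receptor alpha, was also higher in both, at 1.32 (0.23 to 2.31) and 2.19 (0.88 to 3.76). Abca1 went in opposite directions, at 0.64 and -0.44.

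In lymphocytes the sum went from 464 to 354 and from 544 to 363 CPM, log2 ratios of -0.39 (-0.53 to -0.25) and -0.58 (-0.77 to -0.41). The second value changed when dividing and thymocyte-like cells were left out. The mix of lymphocytes moved too. In Lox_CTR, Lox_HFD, KO_CTR and KO_HFD, 114, 33, 37 and 26 cells passed the B panel and 59, 9, 17 and 15 the NK panel. The lymphocytes numbered 521, 193, 331 and 111. The part of this mix in the result was not tested. Markers of thymocytes (Rag1, Rag2, Dntt and Ccr9) summed to 712 and 1018 CPM in Lox_CTR and Lox_HFD and to 1161 and 344 in KO_CTR and KO_HFD, and 5 genes of dividing cells to 1609, 2266, 3186 and 1310. Without the cells that held a UMI of Rag1, Rag2, Dntt, Mki67 or Top2a, which were 46.1%, 54.9%, 65.9% and 32.4% of lymphocytes, the ratio of the sterol sum was -0.65 in the Nrf2Cdh5Lox pair and 0.07 in the Nrf2Cdh5tKO pair. The fatty acid sum went from 167 to 218 CPM in the Nrf2Cdh5Lox pair, a ratio of 0.39 (0.20 to 0.58) that became -0.10 without those cells, and from 184 to 182 in the other (-0.01, -0.28 to 0.25). Fdps was lower in both pairs with all lymphocytes, a rule met by 0.345% of all genes, and no member was higher in both, where 0.690% were. It gave 67.8, 42.9, 84.0 and 41.4 CPM in the 4 libraries, with ratios of -0.66 (-1.06 to -0.28) and -1.02 (-1.59 to -0.50), and the second became 0.56 without those cells. In the Nrf2Cdh5Lox pair 6 of 26 members were lower, beside 9.87% of all genes, and 1 higher, beside 12.5%. In the Nrf2Cdh5tKO pair 8 of 25 were lower, beside 24.1%, and 1 higher, beside 12.0%. With diet and label as terms edgeR called no member lower or higher in lymphocytes, where none of all genes was. At an unadjusted p under 0.05 and at least 1.5-fold it had 1 lower and 0 higher, beside 0.403% and 0.826% of all genes. Abca1 was higher in both pairs, at 1.76 (1.16 to 2.37) and 1.46 (0.60 to 2.30).

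**Figure D4:**
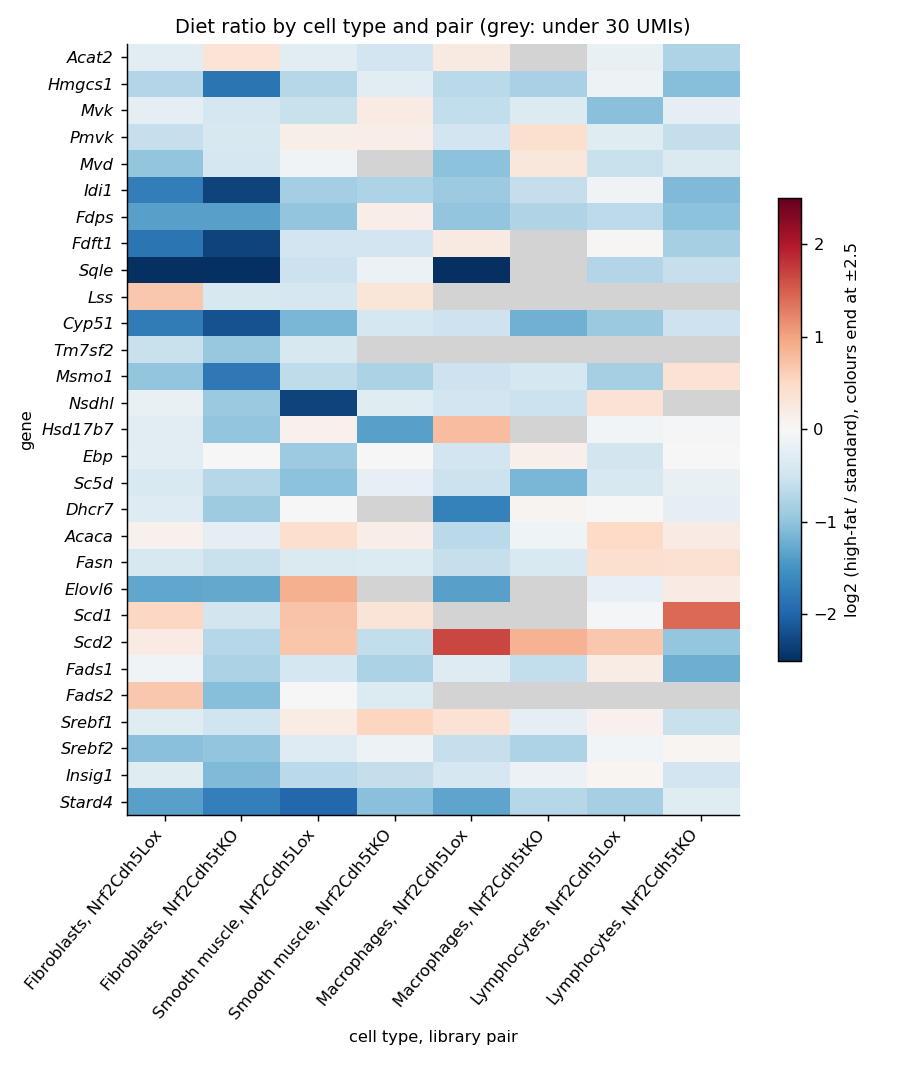
Log2 diet ratio (colour, blue lower and red higher on the high-fat diet) of the 29 genes (rows) in 4 cell types and both library pairs (columns). Grey cells had under 30 UMIs over both libraries of the pair. The darkest blue runs through Idi1, Fdft1, Sqle and Cyp51 in the 2 fibroblast columns, and single dark cells elsewhere, such as Nsdhl in smooth muscle, rest on 1 UMI in Lox_HFD.

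The members also differed in where they were expressed, which could be tested because every library holds all 4 cell types. Each type was compared with the mean of the other 3 over the 16 sums by edgeR's quasi-likelihood test with the library as a block, and a member was called at an adjusted p under 0.05 over 13177 genes and a log2 difference of at least 1. Replicates here are the 4 pooled libraries, and the differences below are log2 differences in level for 1 gene between cell types. In fibroblasts 5 of the 29 members were higher (21.5% of all genes were), a share near that of all genes, and 4 of the 5 were desaturases. None was called lower by edgeR (13.8% of all genes were), 1 was by DESeq2, and 9 had an unadjusted p under 0.05 in that direction. Most of these 9 also had an edgeR adjusted p under 0.05 and missed only the log2 threshold. Sqle came closest to it, at -0.89 (SE 0.30, edgeR adjusted p = 0.016). Without KO_CTR edgeR called 2 lower, and without Lox_CTR 1. Scd1 was higher by 2.35 (SE 0.18, adjusted p = 4.0e-09) and Scd2 by 1.98 (SE 0.14, adjusted p = 1.1e-09), followed by Fads2 (1.39), Hsd17b7 (1.29) and Fads1 (1.22). Fads2 gave 2.55, 4.09, 4.53 and 2.16 CPM in fibroblasts of Lox_CTR, Lox_HFD, KO_CTR and KO_HFD. Smooth muscle had more in every library, at 5.11, 5.11, 8.70 and 6.89 CPM. A call against the mean of the other 3 types therefore does not make a type the highest.

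Macrophages were low in 3 of these 4 desaturases. Fads1 was not called there (0.36) and gave 14.7 to 23.1 CPM. Of the 29, 8 were lower (5 without KO_CTR; 18.9% of all genes were) and 1 was higher (19.4% were). Scd1 differed by -3.25 (SE 0.30, adjusted p = 4.4e-08) and gave 2.70, 4.63, 2.94 and 8.13 CPM in Lox_CTR, Lox_HFD, KO_CTR and KO_HFD, beside 62.6 to 108 in fibroblasts. Scd2 differed by -3.04 (SE 0.21, adjusted p = 1.3e-09) and gave 5.27, 16.7, 5.52 and 10.1. Fads2 was all but absent, with 1, 0, 1 and 0 UMIs in the 4 libraries. Hmgcs1 (-1.23), Fdps (-1.16), Sqle (-1.15), Fasn (-1.03) and Hsd17b7 (-1.002) were the other lower members, and Insig1, the sterol-sensing brake, was the higher one at 1.13 (SE 0.13, adjusted p = 8.9e-07), with 42.6 to 80.2 CPM; it lost the call without KO_HFD. In contrast, all 9 other genes of efflux and storage were higher in macrophages, led by Apoe at 4.48 and Abca1 at 3.46.

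Smooth muscle cells and lymphocytes differed in other members. In smooth muscle 3 members were higher (20.8% of all genes were) and 5 were lower (18.7% were). Fads2, the delta-6 desaturase, was higher by 2.83 (SE 0.29, adjusted p = 1.6e-07), with 5.11, 5.11, 8.70 and 6.89 CPM in the 4 libraries, and Fdft1 (1.13) and Sqle (1.09) followed. Dhcr7 (-1.63), Insig1 (-1.42), Mvd (-1.41), Stard4 (-1.32) and Ebp (-1.04) were lower. In lymphocytes 7 members were higher (18.5% of all genes were) and 1 was lower (28.6% were). Stard4 was higher by 1.74 (SE 0.20, adjusted p = 6.3e-07), with 32.5, 18.3, 26.3 and 21.4 CPM, and Dhcr7 by 1.61 (SE 0.20, adjusted p = 1.4e-06). Elovl6 (1.35), Idi1 (1.28), Scd2 (1.06), Mvd (1.03) and Fdps (1.02) were the others, and Fads1 was lower, at -1.72 (SE 0.15, adjusted p = 2.5e-08). Scd2 gave 67.6, 108, 98.4 and 50.2 CPM in lymphocytes of Lox_CTR, Lox_HFD, KO_CTR and KO_HFD. In each library it was below the fibroblast level (96.5, 111, 168 and 103). The difference of Fdps became -0.41 without the thymocyte-like and dividing cells.

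**Figure D5:**
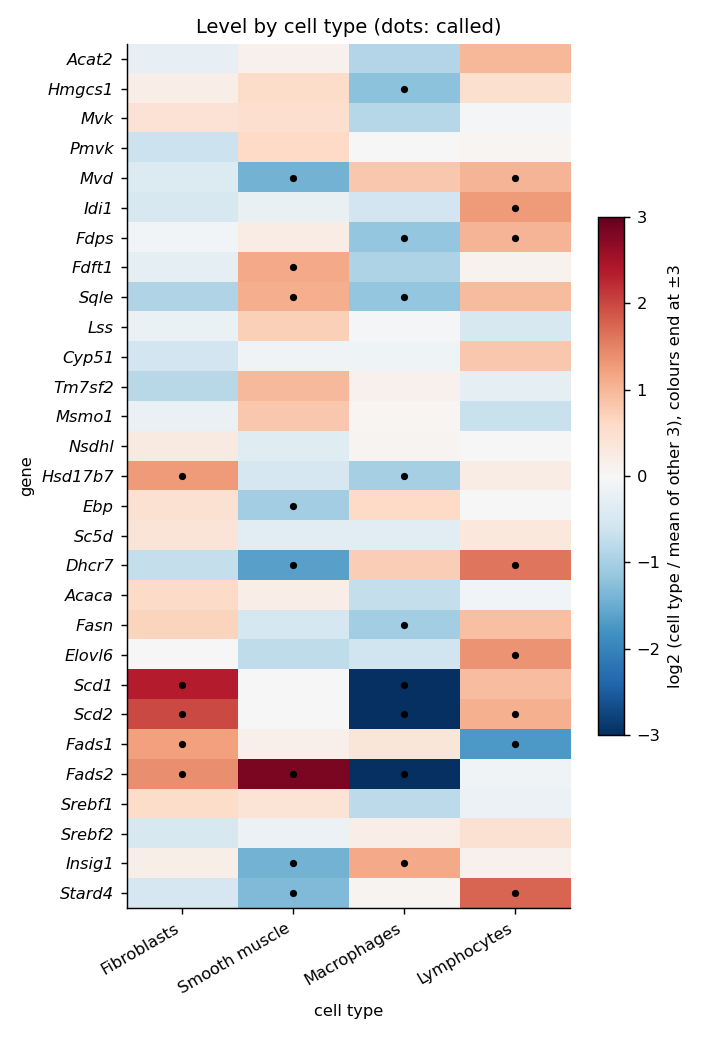
Log2 difference (colour) of each member (rows) between a cell type and the mean of the other 3 (columns), from the test over 16 sums. Black dots mark members past both thresholds. Scd1 and Scd2 are red in fibroblasts (2.35 and 1.98) and deep blue in macrophages (-3.25 and -3.04).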

How the data were processed

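Single-cell libraries (10x Genomics 3′ kit, cells sorted as DAPI-negative) were sequenced from pooled aortic arches, 1 per group. Per the labels, the authors used Cell Ranger 6.1.2 and mm10, and deposited filtered matrices of raw UMI counts, neither normalized nor corrected for free RNA. Library totals were 12276546 to 98754487 UMIs over 15599 barcodes (30 occurred in more than 1 library). The study's limits on cells were applied, 200 to 6000 genes detected and a mitochondrial share no higher than 15%, which left 14148 barcodes. A cell was gated by at least 4 of 6 panel genes (3 for T, B and NK panels), 2 above any other panel, which left 14.6% ungated. Doublets were kept in the main values (306 marked by Scrublet in scanpy 1.11.5). Counts were summed by library and type in Python 3.11.15. Cell types were compared with edgeR 4.0.16 in R 4.3.3 (DESeq2 1.42.0 as an alternative), as was diet with the label as a second term in a test added after the data were seen, checked on simulated data. The simulated diet changes were much larger than 1.5-fold and equal under both labels, so the check does not cover smaller or unequal ones. Values are given in each library for members at least 1.5-fold apart in the same direction in both pairs with both intervals leaving out 0, for both sums, and for up to 10 members with the largest cell type difference. Members and lists were chosen with earlier results of these data known. In the cell type test the replicates are pools of mice, and its p-values measure the spread between 4 libraries that also differ in diet or label. Those of the diet test rest on 1 residual degree of freedom and largely on spread borrowed from other genes. Gene-level reads were not assigned to exons. The nature of the treatment given with the high-fat diet and the values of some other genes of the pathway are not reported here.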

Additional observations from a re-analysis of the deposited data

Results flagged for a closer look

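Some members had diet ratios on opposite sides of 0 in the Nrf2Cdh5Lox and Nrf2Cdh5tKO pairs, with both counting intervals leaving out 0. In fibroblasts these were Scd1 (log2 0.51 and -0.46), Scd2 (0.20 and -0.71) and Fads2 (0.68 and -1.07). Scd2 did the same in smooth muscle cells (0.69 and -0.62) and in lymphocytes (0.67 and -0.97). Each group has 1 library, so the difference between the pairs was not tested. In all of these the standard-diet library of the Nrf2Cdh5tKO label had the higher level of the 2 standard-diet libraries. With the mean over cells in place of the sum, Fads2 in fibroblasts of the Nrf2Cdh5tKO pair became -0.30, and without thymocyte-like or dividing cells Scd2 in lymphocytes of the Nrf2Cdh5Lox pair became 0.06.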

How the results depend on the processing

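Each group has 1 library, so diet ratios cover counting error only, and low members in macrophages, lymphocytes and Lox_HFD smooth muscle cells are limited by depth. In fibroblasts the ratio of the sterol sum stayed between -0.78 and -0.71 (Nrf2Cdh5Lox) and between -1.15 and -1.08 (Nrf2Cdh5tKO) under the alternatives tried for it. Added after the data were seen, fibroblasts with Fmod gave -0.81 and -1.43 and those with Penk -2.17 and -1.74, and Cilp left too few cells. The causes of the following changes were not tested.

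With the mean over cells in place of the sum, the fatty acid ratio in Nrf2Cdh5Lox smooth muscle was 0.88 and Cyp51 there 0.12, the sterol ratio in Nrf2Cdh5tKO macrophages was -0.56, and higher members numbered 1 in Nrf2Cdh5Lox fibroblasts, 5 in Nrf2Cdh5Lox smooth muscle, 2 in Nrf2Cdh5Lox lymphocytes and 3 in Nrf2Cdh5tKO lymphocytes. With median ratio scaling the sterol ratio in Nrf2Cdh5tKO lymphocytes was -0.40, 18 members were lower in Nrf2Cdh5Lox macrophages and 1 was higher in Nrf2Cdh5Lox smooth muscle. With the stricter gate the fatty acid ratio in Nrf2Cdh5tKO macrophages was -0.51, and higher members numbered 0 in Nrf2Cdh5Lox smooth muscle, 0 in macrophages of both pairs and 3 in Nrf2Cdh5Lox lymphocytes. With no minimum of UMIs, higher members numbered 1 in Nrf2Cdh5tKO smooth muscle, 2 in Nrf2Cdh5tKO macrophages, 3 in Nrf2Cdh5Lox lymphocytes and 2 in Nrf2Cdh5tKO lymphocytes, and 13 were lower in Nrf2Cdh5tKO macrophages. With no filter on cells 5 were lower and 2 higher in Nrf2Cdh5tKO macrophages.

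Without thymocyte-like or dividing lymphocytes, the sterol ratio was -0.65 in the Nrf2Cdh5Lox pair and 0.072 in the Nrf2Cdh5tKO pair, the fatty acid ratio of the Nrf2Cdh5Lox pair turned from 0.39 to -0.10, no member was higher in either pair (0 and 0), and 3 were lower in the Nrf2Cdh5tKO pair, where Hmgcs1 became 0.48 and Fdps 0.56. Between cell types Fdps in lymphocytes became -0.41. DESeq2 called 1 member lower in fibroblasts. With each library left out in turn, members lower in fibroblasts numbered 0 to 2 (1 without Lox_CTR, 2 without KO_CTR), members lower in macrophages 5 to 9 (5 without KO_CTR) and members higher in macrophages 0 to 1 (0 without KO_HFD). For single members 24 calls between cell types were weaker under an alternative, most often Hsd17b7 in macrophages. With diet and label as terms (edgeR, added after the data were seen), members lower numbered 10 in fibroblasts and 0 in smooth muscle, macrophages and lymphocytes, beside 10, 1, 2 and 1 by the rule on both pairs. Of the other alternatives for the sums and counts, 279 were classed as unchanged from the main value, but not all kept its sign. The fatty acid ratio ran from -0.27 to 0.07 in Nrf2Cdh5Lox macrophages (main value -0.01). It ran from -0.51 to 0.006 in Nrf2Cdh5tKO macrophages (main value -0.12) and from -0.08 to 0.17 in Nrf2Cdh5tKO lymphocytes (main value -0.01).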
